A study of Homo sapiens with 8 samples.

Results

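Caco-2 cells carrying a short hairpin RNA (shRNA) to GATA6, which directs the breakdown of its target messenger RNA, were compared with Caco-2 control cells, 2 arrays against 2, which are 4 of the 8 arrays of the series. Caco-2 is a line of colorectal adenocarcinoma that takes on features of small intestinal enterocytes in culture. The labels name the shRNA cells as infected with an shRNA to GATA6 and selected with puromycin, and name the other group only as control. Both groups were grown in the supplier's recommended medium, RNA was isolated with Trizol, and labelled copies primed at the 3′ end were hybridised to Affymetrix human arrays. The other 4 arrays hold the same comparison in HUG1N, a gastric cancer line, and served here to estimate the spread and to test where Caco-2 differed. Whether the control cells carried a vector and passed the same selection is not stated, so an effect of infection or selection and an effect of the hairpin cannot be told apart. The labels also do not say whether replicate arrays stem from separate cultures, so the p-values reflect the spread of these arrays alone, and that spread may be technical.

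GATA6 is a zinc-finger transcription factor that binds GATA motifs and, in gut endoderm, acts beside HNF, FOXA and CDX factors to specify and maintain epithelial cells. In the intestine it is known for its part in crypt proliferation, in secretory and absorptive differentiation and in the expression of genes of lipid and steroid handling. Its relatives GATA2 and GATA3 are typical of other tissues, GATA2 of blood and endothelium and both of the trophoblast of the placenta.

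All values are on the log2 scale of the deposited table, and a value under 4 was treated as unmeasured. Each of 11963 genes was represented by its probe set with the highest mean over the 8 arrays, and 7696 genes over 4 in at least 2 arrays were tested. Of these, 6979 were over 4 in all 4 Caco-2 arrays and 378 in none. A gene is called where limma's adjusted p was under 0.05. Across genes, the correlation r of Caco-2 arrays was 0.996 to 0.997 within a group and 0.962 between the groups.

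The arrays carried the epithelial markers of the label. Of 11 colon epithelial markers on the array, 10 were over 4 in both arrays of each group. Of 15 fibroblast markers 1 was over 4 in both control arrays and 3 in both shRNA arrays, S100A4 being measured in both groups and LUM and COL1A1 being added, COL1A1 from 4.35 and 3.96 to 4.35 and 4.32. The defining fibroblast genes COL1A2, COL3A1, DCN and PDGFRB were unmeasured in all 4 arrays, as were the immune genes PTPRC and CD3D. Of 13 immune markers 2 were over 4 in both control arrays and 1 in both shRNA arrays. The summed level of the fibroblast list ran from 10.67 to 10.71 in control and from 11.75 to 11.84 in shRNA arrays, and that of the immune list from 9.43 to 9.82 and from 7.89 to 8.01. As a check for RNA of the other line, 29 genes were over 10 in all 4 HUG1N arrays and over 4 in no Caco-2 control array, and 4 of them were over 4 in both Caco-2 shRNA arrays. Among all genes, called or not, 102 were over 4 in no Caco-2 control array and in both Caco-2 shRNA arrays. Of these, 50 were over 4 in both HUG1N control arrays. The same share was not counted over all genes unmeasured in the Caco-2 control arrays. The counts of this check therefore have no background to be read against. The gap between the 3′ and 5′ probe sets of ACTB, a measure of RNA integrity and labelling, was 1.92 ± 0.02 (SD, n = 2) in the control group and fell to 1.55 ± 0.13 (SD, n = 2) with the shRNA. It moved with the group, and its part in the results below was not tested.

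GATA6 itself was a little lower in the shRNA arrays, and 2 other GATA factors were higher. GATA6 lay at 12.63 and 12.45 in the control arrays and at 12.23 and 12.02 in the shRNA arrays. The groups did not overlap, and the shRNA arrays held 74.9% of the control level, a log2 difference of -0.42 (SE 0.10, adjusted p = 0.0224, 95% interval -0.67 to -0.17). This call was lost in 4 of 19 alternatives, where adjusted p ran from 0.00699 to 0.112. The 4 were the fit that left out control replicate 1 (-0.32, adjusted p = 0.112), the one that left out shRNA replicate 2 (-0.31, adjusted p = 0.0949), the Caco-2 arrays alone (adjusted p = 0.0724) and no filter (adjusted p = 0.0562). GATA2, a factor of blood, endothelium and trophoblast, lay at 5.80 and 5.73 in the control arrays and at 8.31 and 8.68 in the shRNA arrays, a 6.61-fold rise (SE 0.13, adjusted p = 3.77e-05). A second, dimmer GATA2 probe set did not share this rise, averaging 4.16 in the control and 4.03 in the shRNA arrays, and was not called. GATA3, a factor of T cells, mammary epithelium and trophoblast, lay at 8.70 and 9.18 in the control arrays and at 10.90 and 10.77 in the shRNA arrays, a 3.72-fold rise (SE 0.15, adjusted p = 3.29e-04). For the probe set that represents each of these relatives, both shRNA arrays were above both control arrays. GATA4, a second GATA factor of gut endoderm, was under 4 in every Caco-2 array and is counted as unmeasured.

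The difference between the groups spread over a large part of the transcriptome. Limma called 2982 of 7696 genes, 38.7% of those tested, of which 1504 (19.5%) were higher and 1478 (19.2%) lower in the shRNA arrays. The groups of 2 arrays did not overlap for 5653 genes, 73.5% of those tested. A lack of overlap, given for single genes above and below, was therefore shared by most tested genes. The counts of gene lists given further on are to be read against the 19.5% higher and 19.2% lower. The median difference over all tested genes was -0.0030. Most of the calls were small: 1110 were under 0.5 log2 units and 1130 between 0.5 and 1. At least 2-fold changes numbered 742 (9.64%), with 408 higher (5.30%) and 334 lower (4.34%), and 91 changes were of 3 log2 units or more, 55 of them rises. Among the calls, 96 genes went from no control array over 4 to both shRNA arrays over it, and 63 went the other way. Without control replicate 1 the total was 1985, and without control replicate 2 it was 1895. Another 28 of the called genes were over 4 in no Caco-2 array; the counts of calls include them, but no change is described for them.

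**Figure D1:**
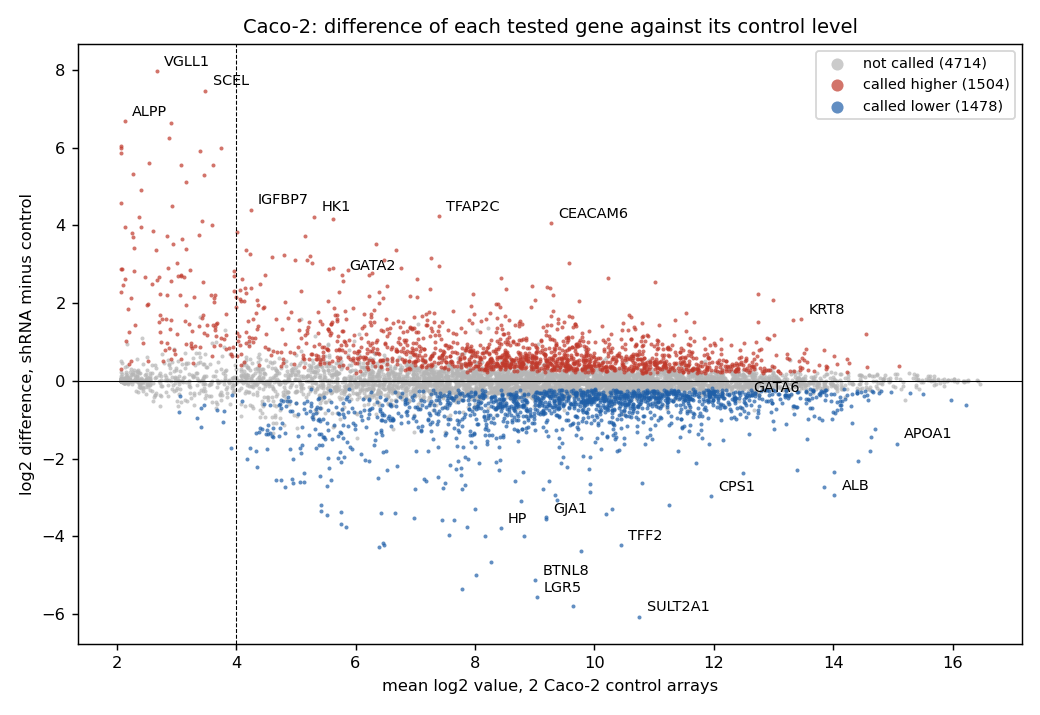
Each point is 1 of the 7696 tested genes, with the mean log2 value of the 2 Caco-2 control arrays on the horizontal axis and the log2 difference between shRNA and control means on the vertical axis; the dashed line marks log2 4, under which a value is unmeasured. The 1504 genes called higher and the 1478 called lower lie on both sides of 0 at all levels, the largest rises start from control values near or under 4, and GATA6, at -0.42, lies close to the line of no difference.

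Among genes measured in all 4 arrays, the largest rises were of secreted and surface proteins, signalling proteins and a placental transcription factor. IGFBP7, a secreted binding protein of insulin-like growth factors, lay at 4.08 and 4.42 in the control arrays and at 8.64 and 8.66 in the shRNA arrays, a 21.1-fold rise (SE 0.11, adjusted p = 3.64e-06). TFAP2C, an AP-2 factor of trophoblast and germ cells, lay at 7.31 and 7.49 in the control arrays and at 11.74 and 11.54 in the shRNA arrays, a 18.9-fold rise (SE 0.11, adjusted p = 3.64e-06). HK1, the hexokinase that opens glycolysis in most tissues, lay at 5.42 and 5.20 in the control arrays and at 9.56 and 9.50 in the shRNA arrays, a 18.6-fold rise (SE 0.12, adjusted p = 4.98e-06). In each case the gap between the groups was many times the gap between the arrays of a group. CEACAM6 and CEACAM5, carcinoembryonic antigen relatives of the epithelial surface, rose 16.7-fold and 8.60-fold, from 9.26 and 9.30 to 13.37 and 13.32 for CEACAM6. CD24, a mucin-like surface glycoprotein, rose 8.16-fold, and EMP1, an epithelial membrane protein, rose 8.89-fold. BAMBI, a decoy receptor of BMP and TGF-beta signals, rose 11.4-fold and INHBB, an activin subunit, 10.3-fold. The semaphorin receptor PLXND1, the urokinase receptor PLAUR, the keratin KRT23 and the raft protein RFTN1 rose by 3.27, 3.22, 3.18 and 3.11 log2 units, and GDPD2, BASP1 and RNF24 by 3.10, 2.96 and 2.90.

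The largest falls among measured genes were of trefoil peptides, liver-type secreted proteins and enzymes of steroid, lipid and nitrogen metabolism. TFF2, a trefoil peptide of mucus, lay at 10.34 and 10.55 in the control arrays and at 5.95 and 6.51 in the shRNA arrays, which left 5.36% of the control level (SE 0.20, adjusted p = 3.77e-05). HP, the haemoglobin-binding plasma protein haptoglobin, lay at 8.44 and 8.42 in the control arrays and at 4.65 and 4.64 in the shRNA arrays, which left 7.27% (SE 0.06, adjusted p = 6.70e-07). GJA1, the gap junction protein connexin 43, lay at 9.16 and 9.23 in the control arrays and at 5.71 and 5.60 in the shRNA arrays, which left 8.60% (SE 0.07, adjusted p = 1.45e-06). All 3 had shRNA arrays well below both control arrays. DEPTOR, an inhibitor of the kinase mTOR, was left at 6.35%, HSD17B2, which inactivates oestradiol and testosterone, at 9.40%, AADAC, an arylacetamide deacetylase of liver and gut, at 10.2% and SOAT2, the cholesterol esterifying enzyme of enterocytes and liver, at 10.2%. CPS1, the entry enzyme of the urea cycle, lay at 11.92 and 11.97 in the control arrays and at 9.19 and 8.76 in the shRNA arrays and was left at 12.8%. ALB, serum albumin, lay at 14.07 and 13.97 in the control arrays and at 11.11 and 11.05 in the shRNA arrays and fell by 2.94. The phospholipid flippase gene ATP10D lay at 9.78 and 9.77 in the control arrays and at 6.33 and 4.48 in the shRNA arrays, and its shRNA arrays were further apart than those of any gene named above. TFF1, LRP2 (the endocytic receptor megalin), ABAT (GABA transaminase), CA12 (a carbonic anhydrase) and TNFRSF11B (osteoprotegerin) fell by 3.20, 2.85, 3.06, 2.76 and 2.92 log2 units. FMOD, GABRA4, CATSPERZ, TTN and the pseudogene GOLGA2P5 fell by 3.09, 2.79, 2.78, 2.77 and 3.51.

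**Figure D2:**
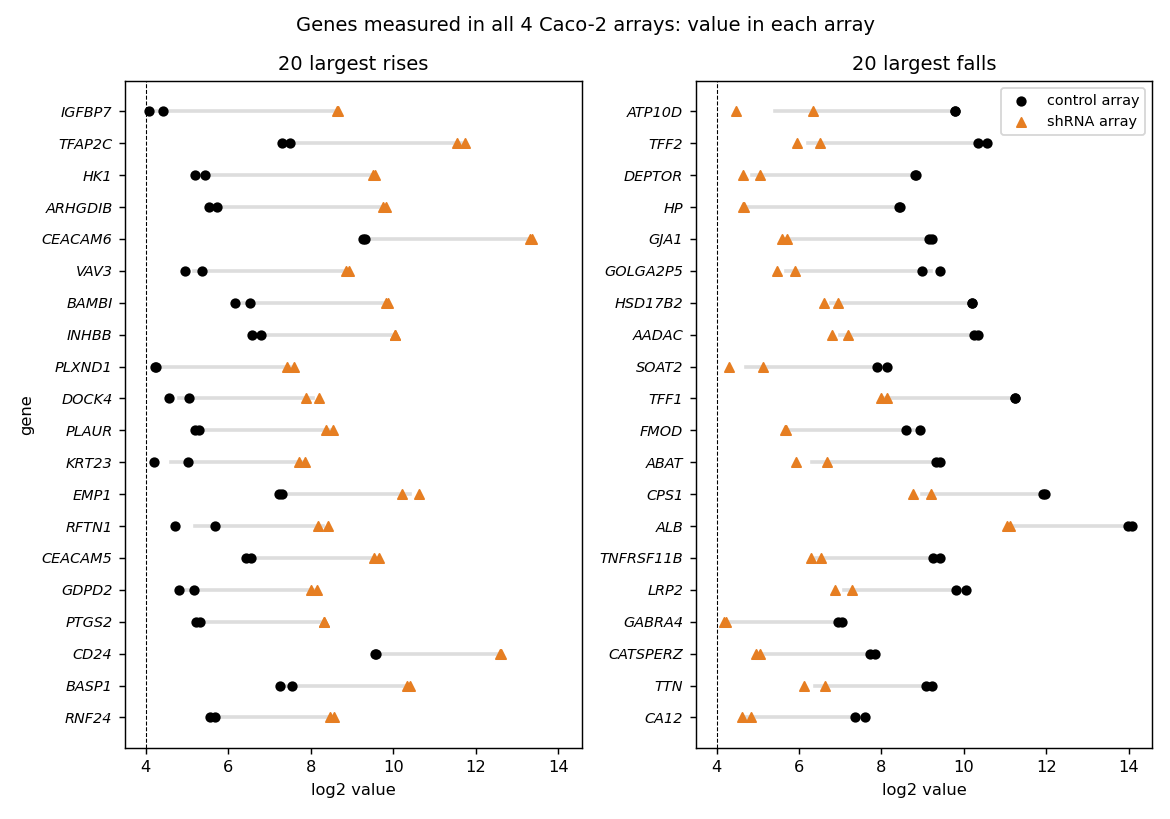
The log2 value of every Caco-2 array for the 20 largest rises (left) and the 20 largest falls (right) among called genes with all 4 arrays over log2 4; black circles are control arrays, orange triangles shRNA arrays, and grey bars join the group means. No gene shown has overlapping groups, and the spread within a group is widest for ATP10D, whose shRNA arrays lie at 6.33 and 4.48.

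Another set of genes crossed the limit of measurement, and their changes are lower bounds against log2 4. The SE and adjusted p beside a bound belong to the difference of the deposited values, those under 4 included, and not to the bound. SCEL, a protein of the cornified envelope of squamous cells, lay at 3.54 and 3.43 in the control arrays and at 10.92 and 10.99 in the shRNA arrays, a rise of at least 124-fold (SE 0.07, adjusted p = 1.72e-07). VGLL1, a partner of TEAD transcription factors that is typical of trophoblast, lay at 2.81 and 2.54 in the control arrays and at 10.60 and 10.68 in the shRNA arrays, a rise of at least 99.6-fold (SE 0.10, adjusted p = 4.22e-07). LGR5, the R-spondin receptor that marks intestinal stem cells, averaged 9.03 ± 0.04 in the control arrays and 3.47 ± 0.66 in the shRNA arrays (SD, n = 2), the higher shRNA array at 3.94, a fall of at least 32.8-fold (SE 0.27, adjusted p = 4.31e-05). Such genes were picked for having both arrays of the brighter group and no array of the other over 4. Their groups could therefore not overlap. The other upward bounds included the inwardly rectifying potassium channel KCNJ16 (at least 46.1-fold), the prostaglandin E synthase PTGES (at least 27.0-fold), the parathyroid hormone receptor PTH1R (at least 19.5-fold) and the nicotinamide methyltransferase NNMT (at least 39.5-fold). PLAAT4, a retinoid-induced phospholipase, rose at least 35.0-fold, IFIT1, an interferon-induced antiviral protein, at least 24.8-fold, and the kidney-type proton pump subunit ATP6V1B1 at least 16.8-fold. Downward, BTNL8, a butyrophilin-like surface protein of the gut, lay at 9.05 and 8.98 in the control arrays and at 3.87 and 3.90 in the shRNA arrays, a fall of at least 32.3-fold. ITIH2, an inter-alpha-trypsin inhibitor chain made in liver, fell at least 19.3-fold, VPS35L, an endosomal recycling subunit, at least 16.3-fold, and ADAM23, a metalloprotease relative without catalytic activity, at least 13.7-fold. CXCL8, the neutrophil chemokine interleukin 8, fell at least 11.9-fold, BCL2L14, a BCL2 relative, at least 7.90-fold, and SERPINC1, antithrombin, at least 6.29-fold.

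SULT2A1 and HSD3B1 had 1 of 2 shRNA arrays over 4, so no bound is given for them. SULT2A1, which sulfates bile acids and adrenal steroids, lay at 10.86 and 10.64 in the control arrays and at 5.42 and 3.97 in the shRNA arrays, a difference of -6.06 (SE 0.44, adjusted p = 2.03e-04). HSD3B1, the steroid dehydrogenase of placenta and peripheral tissues, lay at 9.48 and 9.82 in the control arrays and at 4.58 and 3.16 in the shRNA arrays, a difference of -5.78 (SE 0.42, adjusted p = 2.16e-04). Both shRNA arrays were far below both control arrays, and they lay further from each other than the control arrays did.

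The letters of the GATA motif and of 2 other motifs were counted in the promoters of the genes that changed. The windows were the 250 bases before 1 annotated start site per gene, from RefSeq on GRCh38.p14, and 6401 of the 7696 tested genes had one. The letters GATAA, read on both strands, occurred in 64 of 256 windows (25.0%) of genes called lower at least 2-fold, in 33 of 325 (10.2%) of genes called higher at least 2-fold and in 795 of 6401 (12.4%) of all tested genes. Among all called genes regardless of size, the shares were nearer to each other, 176 of 1200 (14.7%) of those lower and 150 of 1238 (12.1%) of those higher. Over all RefSeq windows of this length it was 5727 of 27305. The median GC content was 63.6% in the windows of the falling genes, 63.2% in those of the rising genes, 65.2% in those of all tested genes and 58.0% in all RefSeq windows. TGANTCA, an AP-1 type motif, occurred in 5.85% of the windows of rising genes, 4.69% of falling genes and 3.89% of all tested genes. GGAATG, a TEAD type motif, occurred in 11.1%, 7.81% and 9.09%. GATAA and TGANTCA cannot overlap each other, while GGAATG can overlap either. These shares are descriptions of letters in a short window and were not tested.

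Windows of 4 genes that fell and 2 that rose are printed 5′ to 3′ on the strand of the gene, because they belong to the largest changes of their roles and hold the motifs counted above. Capitals mark the letters of these 3 motifs, read on either strand. The windows are chr19:47886316-47886565 on the minus strand, chr5:180898909-180899158 on the plus strand, chr4:73404037-73404286 on the plus strand, chr6:52803817-52804066 on the minus strand, chr13:77535456-77535705 on the plus strand and chrX:136531965-136532214 on the plus strand.
SULT2A1: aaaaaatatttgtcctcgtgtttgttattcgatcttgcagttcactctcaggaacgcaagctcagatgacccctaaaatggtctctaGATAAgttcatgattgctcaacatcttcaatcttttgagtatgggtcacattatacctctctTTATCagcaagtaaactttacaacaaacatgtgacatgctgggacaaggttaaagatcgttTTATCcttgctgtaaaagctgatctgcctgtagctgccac
BTNL8: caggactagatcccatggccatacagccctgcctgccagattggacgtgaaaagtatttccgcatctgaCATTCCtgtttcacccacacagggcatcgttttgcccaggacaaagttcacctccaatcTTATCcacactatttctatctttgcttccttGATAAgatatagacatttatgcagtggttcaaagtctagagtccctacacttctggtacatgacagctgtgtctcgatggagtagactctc
ALB: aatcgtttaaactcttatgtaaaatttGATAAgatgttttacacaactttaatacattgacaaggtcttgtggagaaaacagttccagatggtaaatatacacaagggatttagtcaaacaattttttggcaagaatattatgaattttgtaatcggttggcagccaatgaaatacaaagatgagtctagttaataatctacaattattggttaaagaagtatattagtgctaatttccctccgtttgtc
GSTA1: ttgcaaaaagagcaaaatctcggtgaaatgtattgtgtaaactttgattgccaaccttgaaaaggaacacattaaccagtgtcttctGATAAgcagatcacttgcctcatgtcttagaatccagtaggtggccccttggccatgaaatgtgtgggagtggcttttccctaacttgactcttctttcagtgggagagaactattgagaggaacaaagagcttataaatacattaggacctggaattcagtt
SCEL: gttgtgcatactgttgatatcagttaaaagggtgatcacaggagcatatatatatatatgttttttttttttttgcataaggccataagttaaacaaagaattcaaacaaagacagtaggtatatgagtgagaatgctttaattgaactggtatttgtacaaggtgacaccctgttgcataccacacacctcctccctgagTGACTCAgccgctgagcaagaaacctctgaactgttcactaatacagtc
VGLL1: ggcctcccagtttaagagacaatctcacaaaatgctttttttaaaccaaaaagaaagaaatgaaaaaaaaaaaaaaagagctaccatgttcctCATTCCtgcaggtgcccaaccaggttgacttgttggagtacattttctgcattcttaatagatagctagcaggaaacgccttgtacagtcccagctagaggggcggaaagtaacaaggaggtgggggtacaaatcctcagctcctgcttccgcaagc
SULT2A1 held 3 copies of the GATAA letters, BTNL8 2, and ALB and GSTA1 1 each. SCEL held 1 copy of TGANTCA, and VGLL1 and the falling gene BTNL8 held 1 copy of GGAATG each. The windows were picked for holding motifs, so they do not show how often rising or falling genes hold them.

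In a list of gut endoderm and related transcription factors, most tested genes were lower. In the list of HNF, FOXA, CDX and other gut endoderm factors, 10 of 15 tested genes were called lower and 1 higher. The median difference was -0.57, or -0.50 with unmeasured levels set at 4. No HNF gene was among those tested. FOXA1 and CDX2 were called lower, while FOXA2 and CDX1 were not called, and the other lower calls included SOX and CEBP factors. That is 66.7% lower, against 19.2% of all genes. SOX9, a factor of crypt progenitors, averaged 11.25 ± 0.00 in the control arrays and 10.12 ± 0.17 in the shRNA arrays (SD, n = 2) and fell by 1.12 (SE 0.15, adjusted p = 0.00237). CDX2, the homeobox factor of intestinal identity, lay at 6.67 and 6.48 in the control arrays and at 6.07 and 5.84 in the shRNA arrays and fell by 0.62 (SE 0.12, adjusted p = 0.00908). Without control replicate 1 the CDX2 difference was -0.53 (adjusted p = 0.0552). CEBPA, CEBPD and SOX4 fell by 0.66, 0.66 and 0.57, and CEBPB, a stress-responsive relative of CEBPA, rose by 0.45. FOXA2 differed by -0.19 and was not called. The shRNA arrays lay below the control arrays for SOX9 and CDX2 alike, by more than the gap within either group.

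Among ELF, EHF, Kruppel-like and related factors the calls were mostly rises. Of 18 ELF, EHF and Kruppel-like factors tested, 8 were called higher (44.4%, against 19.5% of all genes) and 1 lower. The other 9 were not called. ELF3, an epithelial ETS factor, lay at 9.67 and 9.63 in the control arrays and at 11.05 and 11.04 in the shRNA arrays and rose by 1.40 (SE 0.10, adjusted p = 1.70e-04). KLF6 and the grainyhead factor GRHL2 rose by 1.16 and 0.74, and KLF2 went from 5.42 and 5.44 in control arrays to unmeasured. Among nuclear hormone receptors, 3 of 17 were higher and 2 lower, a balance that turned to 1 and 3 without control replicate 1 or shRNA replicate 1. VDR, the vitamin D receptor, rose by 1.12 and THRA, a thyroid hormone receptor, fell by 1.09.

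Most tested genes of the trophoblast and placenta rose, many of them from levels that the control arrays did not register. In the list, 13 of 21 tested genes (61.9%) were called higher and 3 lower, with a median difference of 1.48. The array held 46 members of the list, and those not tested do not enter these values. A member over 4 only in the Caco-2 shRNA arrays was tested because of its level there. This selection raises the share called higher and the median. ALPP, placental alkaline phosphatase, lay at 2.17 and 2.11 in the control arrays and at 8.57 and 9.07 in the shRNA arrays, a rise of at least 28.3-fold (SE 0.17, adjusted p = 3.64e-06). LGALS14, a placental galectin, lay at the lowest value of the table, 2.08, in both control arrays and at 8.44 and 7.82 in the shRNA arrays, a rise of at least 17.5-fold. SIGLEC6, a sialic acid-binding receptor of trophoblast, rose at least 17.7-fold, the pregnancy-specific glycoprotein PSG5 at least 6.25-fold, the placental tachykinin TAC3 at least 4.09-fold and the germ cell alkaline phosphatase ALPG from 2.30 and 2.23 in the control arrays to 7.45 and 7.72. VGLL1, TFAP2C, GATA2, GATA3, EGFR and the imprinted gene PHLDA2 also belong to this list and rose, EGFR by 1.42 and PHLDA2 by 1.48. HSD3B1, MSX2 and CDX2 were its members called lower, and TFAP2A, counted among the higher ones, was over 4 in no Caco-2 array. Probe sets for ALPP and ALPG, for PSG5 and its relatives and for SIGLEC6 can pick up transcripts of near-identical genes, so it is uncertain which gene each value belongs to. A second ALPG probe set averaged 4.06 in the control and 5.14 in the shRNA arrays, a smaller rise.

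Components of the Hippo pathway and targets of its effectors YAP and TEAD were mostly higher. The pathway is a kinase cascade that keeps YAP and TAZ out of the nucleus, where they would otherwise act through TEAD factors. Of 15 components tested, 9 were called higher and 1 lower. The kinase adaptor SAV1 and the scaffold WWC1 rose by 0.86 and 0.63 and TEAD4 by 0.96 (0.82 without control replicate 2, adjusted p = 0.0528), while WWTR1, which encodes TAZ, fell by 0.92. Of 18 target genes, 11 (61.1%) were called higher and 1 lower, with a median difference of 0.65. The lower call was NT5E, which was over 4 in no Caco-2 array. ANKRD1, an ankyrin-repeat protein widely used as a readout of YAP, lay at 2.71 and 4.51 in the control arrays and at 9.17 and 9.17 in the shRNA arrays, with 1 control array under 4. CCN1, a matricellular protein, lay at 6.96 and 7.09 in the control arrays and at 9.49 and 9.82 in the shRNA arrays, a 6.20-fold rise (SE 0.15, adjusted p = 8.84e-05). CCN2, its relative, lay at 8.73 and 8.81 in the control arrays and at 9.87 and 9.75 in the shRNA arrays and rose by 1.04 (SE 0.25, adjusted p = 0.0205). The CCN2 call was lost without any 1 of the 4 Caco-2 arrays (0.98 to 1.10). It was also lost with the replicate block (adjusted p = 0.0665) and with no filter (adjusted p = 0.0799). AMOTL2 and CRIM1 rose 2.83-fold and 1.79-fold and MYOF 2.63-fold. For ANKRD1, CCN1 and CCN2 both shRNA arrays were above both control arrays.

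Wnt receptors and stem cell genes moved in both directions. Of 15 receptors and co-receptors tested, 4 were higher and 4 lower. ROR1, a receptor tyrosine kinase for WNT5A, went from 6.18 and 6.76 in control arrays to unmeasured, at least 5.53-fold, and WNT5A itself from 5.15 and 4.47 to unmeasured. Of 16 Wnt targets and crypt stem cell genes, 5 were called lower, among them LGR5, SOX9, CD44 and PROM1, the last of these by 0.79, and CCND1, cyclin D1, was called higher by 0.78. CD44, a hyaluronan receptor, lay at 9.63 and 9.56 in the control arrays and at 8.35 and 8.59 in the shRNA arrays and fell by 1.12 (SE 0.09, adjusted p = 3.48e-04). MYC, another target of the pathway, differed by -0.45 (adjusted p = 0.0803) and was not called. Of 11 Notch pathway genes, 4 were lower, among them NOTCH2 and RBPJ by 0.57 and 0.60 log2 units, and none was higher.

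Ligands, inhibitors and targets of BMP and activin signalling rose in larger part than they fell. Among components, 9 of 22 were called higher and 3 lower. The ligands BMP4 and BMP7 rose by 1.93 and 1.74 and the stress-induced ligand GDF15 by 2.56, while the signal transducers SMAD5 and SMAD1 fell by 2.33 and 0.69. GDF15 lay at 11.03 and 10.98 in the control arrays and at 13.53 and 13.59 in the shRNA arrays. ID1, a direct BMP target that blocks differentiation factors, lay at 9.17 and 9.33 in the control arrays and at 11.58 and 11.73 in the shRNA arrays and rose by 2.40 (SE 0.11, adjusted p = 3.32e-05). ID3 rose at least 2.16-fold, whereas ID2 and the inhibitor SMAD6 fell by 0.86 and 1.47. Both GDF15 and ID1 had arrays close together within a group and no overlap between the groups.

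Receptors, ligands and feedback genes of the EGF and MAPK pathways were higher more often than lower. EGFR lay at 8.76 and 8.71 in the control arrays and at 10.06 and 10.23 in the shRNA arrays, and its relative ERBB2 and the adaptor GRB7 rose by 0.87 and 1.72. Of 23 DUSP, Sprouty and other feedback genes, which are induced by MAPK activity, 12 were called higher (52.2%) and 3 lower. DUSP5, a nuclear phosphatase of ERK, lay at 6.72 and 6.78 in the control arrays and at 9.63 and 9.67 in the shRNA arrays, a 7.43-fold rise (SE 0.07, adjusted p = 2.81e-06). SPRY1, IER3, DUSP1 and DUSP6 rose by 1.61, 1.41, 1.21 and 0.84, while DUSP9 and DUSP7 fell by 1.69 and 1.48. Among other growth factor genes, the FGF carrier FGFBP1 rose by 2.49 and FGFR3 by 1.44, while FGFR2 fell by 1.43. Of 16 semaphorins, plexins and other guidance genes, 9 were higher and 2 lower, and the ephrin receptors EPHA2 and EPHA1 rose by 1.30 and 1.06.

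**Figure D3:**
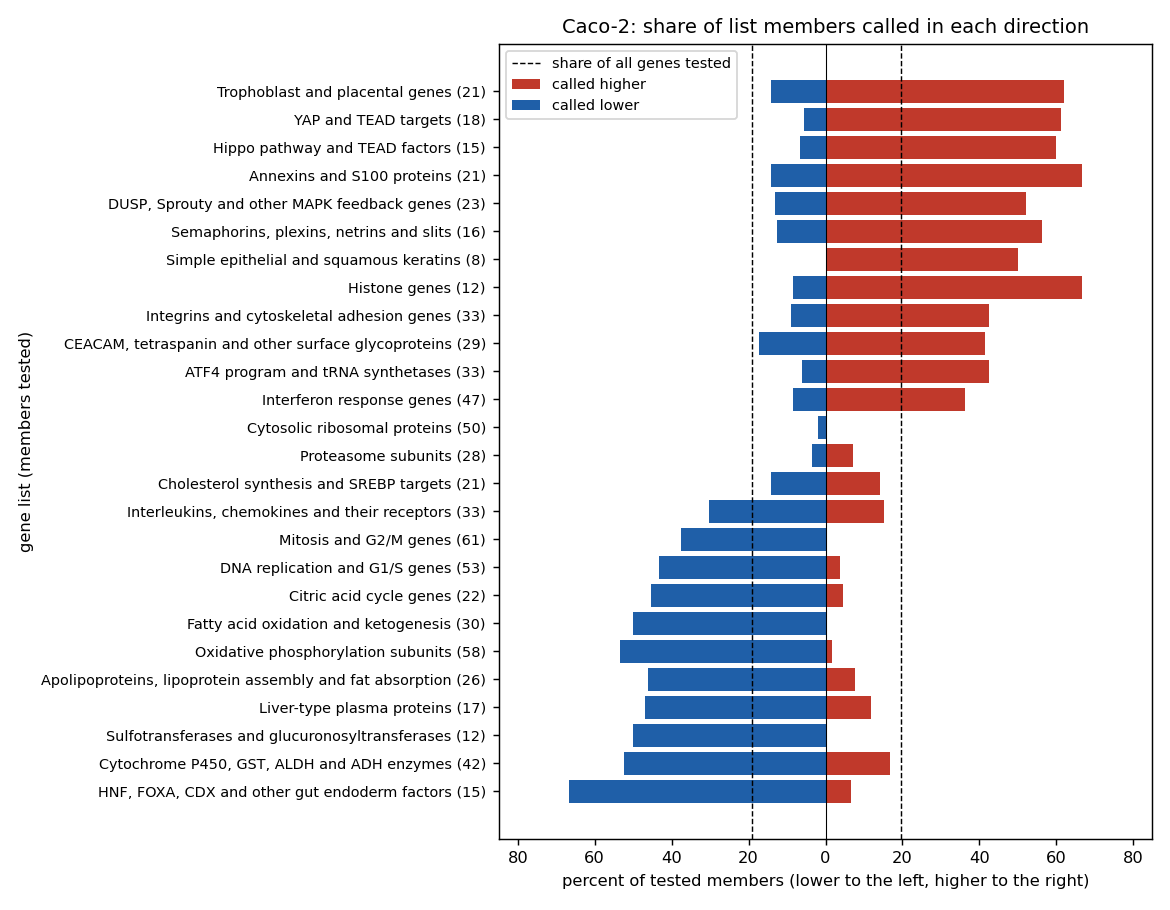
Bars give, for 26 gene lists with the number of tested members in brackets, the percent of members called higher (right, red) and lower (left, blue) in the Caco-2 shRNA arrays; dashed lines mark the shares of all tested genes, 19.5% and 19.2%. Lists of placental, YAP and TEAD, annexin and histone genes extend to the right, lists of gut endoderm factors, lipid, xenobiotic and mitochondrial genes to the left, and ribosomal protein and proteasome genes hardly leave 0.

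Keratins, surface glycoproteins and calcium-binding annexins and S100 proteins were higher more often than lower. Of 8 keratins tested, 4 were called higher and 0 lower, and these were the simple epithelial KRT8, KRT18 and KRT19 and the inducible KRT23. KRT8 lay at 13.38 and 13.54 in the control arrays and at 14.96 and 15.12 in the shRNA arrays and KRT19 at 13.29 and 13.37 in the control arrays and at 14.88 and 14.90 in the shRNA arrays, rises of 2.99-fold and 2.95-fold. Of 21 annexins and S100 proteins, 14 (66.7%) were higher and 3 lower, with a median difference of 0.45. S100P, a calcium-binding protein common in carcinomas and named for placenta, lay at 10.25 and 10.21 in the control arrays and at 12.90 and 12.86 in the shRNA arrays, a 6.27-fold rise (SE 0.07, adjusted p = 3.64e-06). ANXA1, a phospholipid-binding protein with anti-inflammatory roles, lay at 4.41 and 3.06 in the control arrays and at 9.55 and 9.90 in the shRNA arrays, with 1 control array under 4. S100A14, S100A9 and S100A4 rose by 1.32, 1.67 and 1.08, and the gut annexin ANXA13 fell by 1.46. Of 29 CEACAM, tetraspanin and related surface genes, 12 were higher and 5 lower. CD47, a signal against engulfment, rose by 1.97 and CEACAM1 by 1.54, while TSPAN8 fell by 1.80. CEACAM5, CEACAM6 and CEACAM1 are close relatives, and their probe sets may pick up each other's transcripts.

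Junction, integrin and matrix genes were higher more often than lower. Among tight junction genes 5 of 15 were higher and 1 lower, with CLDN4 and TJP3 up by 1.49 and 0.96. Among adherens junction, desmosome and gap junction genes 9 of 19 were higher, such as the desmosomal DSP (0.72) and DSG2 (0.75), and 4 lower, led by GJA1. Of 33 integrins and cytoskeletal adhesion genes, 14 were higher and 3 lower. ITGB4, the hemidesmosome integrin, lay at 6.03 and 6.53 in the control arrays and at 8.83 and 9.29 in the shRNA arrays, a 6.89-fold rise (SE 0.21, adjusted p = 2.24e-04), and TPM1, FERMT2 and ITGA2 rose by 1.75, 1.67 and 1.42. Of 31 matrix and basement membrane genes, 13 were higher and 6 lower. The proteoglycans LUM, GPC1 and BGN rose at least 11.6-fold, 10.7-fold and 3.91-fold from unmeasured levels. A second GPC1 probe set averaged 4.22 in the control and 5.22 in the shRNA arrays, a smaller rise. FN1, fibronectin, lay at 14.69 and 14.59 in the control arrays and at 13.23 and 13.16 in the shRNA arrays and fell by 1.44 (SE 0.13, adjusted p = 5.42e-04). Both shRNA arrays of FN1 were below both control arrays.

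Genes of lipoprotein assembly and fat absorption, a trait of enterocytes and hepatocytes, fell more often than they rose. Of 26 tested, 12 (46.1%) were called lower and 2 higher, with a median difference of -0.70. APOA1, the main protein of high-density lipoprotein, lay at 15.08 and 15.05 in the control arrays and at 13.46 and 13.43 in the shRNA arrays, which left 32.6% (SE 0.06, adjusted p = 1.56e-05). APOC3, an inhibitor of triglyceride clearance, lay at 13.51 and 13.62 in the control arrays and at 12.21 and 11.93 in the shRNA arrays, which left 35.5% (SE 0.16, adjusted p = 8.69e-04). APOB, the scaffold of chylomicrons, lay at 13.70 and 13.50 in the control arrays and at 13.01 and 12.78 in the shRNA arrays, which left 61.3% (SE 0.10, adjusted p = 0.00330). For each of the 3 both shRNA arrays were below both control arrays. PLTP, APOH, FABP5 and DGAT1 fell by 2.63, 2.34, 2.37 and 1.31. FABP1, the liver-type fatty acid binding protein, differed by -0.47 (adjusted p = 0.215) and was not called.

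Genes of fatty acid oxidation, the citric acid cycle and oxidative phosphorylation were called lower, by small amounts, far more often than higher. Of 30 genes of fatty acid oxidation and ketogenesis, 15 were called lower and 0 higher (median -0.32). Of 22 citric acid cycle genes, 10 were lower and 1 higher (median -0.26). Of 58 subunits of the respiratory chain and ATP synthase, 31 (53.5%) were lower and 1 higher (median -0.27). ATP5MC1, a ring subunit of ATP synthase, lay at 12.37 and 12.39 in the control arrays and at 11.34 and 11.44 in the shRNA arrays and was left at 50.4% (SE 0.09, adjusted p = 4.28e-04). The cytochrome oxidase subunit COX7C was the member that rose, by 0.64. MDH1, the cytosolic malate dehydrogenase, fell by 1.12, the succinyl-CoA ligase subunits SUCLG1 and SUCLG2 by 0.73 and 0.73, the ketone body enzyme BDH1 by 1.05 and the acyl-CoA synthetase ACSL5 by 1.21. None of the oxidative phosphorylation subunits changed as much as 2-fold. Glycolytic and hypoxia genes did not share a direction, with 8 of 34 higher and 5 lower. Among them the glucose transporter SLC2A3 rose by 2.25, the hypoxia factor EPAS1 by 1.18 and BNIP3 by 0.75, while the glycolytic PGAM1 fell by 0.48.

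Drug-metabolising enzymes were lower more often than higher, while steroid and retinoid genes were called equally often each way. Of 42 cytochrome P450, glutathione transferase and aldehyde or alcohol dehydrogenase genes, 22 (52.4%) were called lower and 7 higher, with a median difference of -0.55. GSTA1, a glutathione transferase of gut and liver, lay at 13.91 and 13.78 in the control arrays and at 11.19 and 11.03 in the shRNA arrays, a fall of 2.74 (SE 0.10, adjusted p = 1.77e-05). ALDH1A1, which makes retinoic acid, fell by 2.28, and EPHX2 and ALDH2 by 1.24 and 0.95. CYP3A5, a major drug oxidase, lay at 5.56 and 5.56 in the control arrays and at 8.54 and 8.34 in the shRNA arrays, a 7.38-fold rise (SE 0.21, adjusted p = 2.22e-04), and GSTM3 rose by 1.37. Of 12 conjugating sulfotransferases and glucuronosyltransferases, 6 were lower and 0 higher. In steroid and retinoid metabolism 9 of 25 were higher and 9 lower, the keto-reductases AKR1C1 and AKR1C2 rising by 1.19 and 1.51. GSTA1 and the AKR1C genes have near-identical relatives, so the gene behind each value is uncertain. The efflux pump ABCB1 went from 5.74 and 5.76 in control arrays to the lowest value of the table, a fall of at least 3.36-fold, and ABCC3 rose by 0.82.

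Liver-type plasma proteins, protease inhibitors and complement genes split. Of 17 plasma protein genes, which Caco-2 shares with fetal gut and liver, 8 were called lower and 2 higher (median -0.49). AFP, alpha-fetoprotein, averaged 13.98 ± 0.02 (SD, n = 2) in the control arrays, lay at 13.19 and 12.82 in the shRNA arrays and was left at 50.6% (SE 0.13, adjusted p = 0.00191). AGT, angiotensinogen, rose by 0.82, and FGB, a fibrinogen chain, rose by 1.47 while its partner FGG fell by 0.64. Among coagulation and serpin genes 8 of 29 were higher and 8 lower, 27.6% each way against 19.5% and 19.2% of all genes. Coagulation factor F5 rose at least 5.46-fold from unmeasured, and SERPINF1, a serpin without protease-inhibiting activity, fell by 0.79. Complement C5 averaged 2.40 ± 0.16 in the control arrays and 7.31 ± 0.45 in the shRNA arrays (SD, n = 2), a rise of at least 9.92-fold, and the complement regulators CD55 and CD59 rose by 1.32 and 0.56, while C1S fell by 2.52. In nitrogen metabolism 14 of 40 genes were lower and 8 higher, with GLUD1, glutamate dehydrogenase, and OAT, ornithine aminotransferase, down by 2.06 and 1.24 and BCAT1, the branched-chain transaminase of the cytosol, up by 1.54.

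Genes of the absorptive surface did not share a direction. Of 17 brush border genes, 3 were called higher and 5 lower, a balance that turned to 4 and 3 without shRNA replicate 2. The peptidase DPP4 and the cadherin CDH17 fell by 0.93 and 0.74, and VIL1, the microvillus protein villin, differed by -0.30 (adjusted p = 0.0832) and was not called. SLC15A1, the intestinal peptide transporter, lay at 5.77 and 5.96 in the control arrays and at 8.93 and 8.49 in the shRNA arrays, a 7.19-fold rise (SE 0.31, adjusted p = 0.00101). SLC16A10, an aromatic amino acid transporter, lay at 7.35 and 7.53 in the control arrays and at 4.81 and 2.91 in the shRNA arrays, with 1 shRNA array under 4. The cystine transporter SLC7A11 and the glutamine transporter SLC38A2 rose by 1.33 and 0.91. All 3 tested carbonic anhydrases fell, CA2 by 2.26 and CA12 by 2.76. GUCY2C, the receptor of guanylin in the brush border, lay at 9.10 and 9.39 in the control arrays and at 6.75 and 6.59 in the shRNA arrays and was left at 16.8% (SE 0.11, adjusted p = 3.31e-05). GUCA2A, which encodes its ligand guanylin, lay at 7.21 and 7.29 in the control arrays and at 9.51 and 9.71 in the shRNA arrays and rose 5.15-fold (SE 0.18, adjusted p = 2.27e-04), so receptor and ligand moved in opposite directions. Among ion channels 10 of 21 were higher and 4 lower, with the calcium-activated potassium channel KCNN4 up by 2.15 and the water channel AQP3 down by 1.62.

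Secretory and mucosal defence genes moved in both directions and so did prostaglandin genes. Of 20 mucin, trefoil and goblet cell genes, 7 were called lower and 6 higher. TFF3, the trefoil peptide of goblet cells, fell by 1.47 beside TFF1 and TFF2, and the membrane mucin MUC13 fell by 0.73, while the mucin-modifying transferases B3GNT3 and GCNT3 rose by 1.56 and 0.80. Of 5 enteroendocrine and Paneth genes tested, 4 were lower, including lysozyme LYZ by 1.96 and the trypsinogens PRSS2 and PRSS3, whose probe sets may share transcripts, by 2.64 and 1.24. Among mucosal defence genes 6 of 16 were lower and 2 higher, and NOX1, the superoxide-making oxidase of colon, lay at 8.06 and 8.28 in the control arrays and at 4.46 and 3.93 in the shRNA arrays, with 1 shRNA array under 4. Of 13 prostaglandin genes, 3 were called higher, 3 lower and 7 neither. PTGS2, the inducible cyclooxygenase, lay at 5.32 and 5.23 in the control arrays and at 8.31 and 8.31 in the shRNA arrays, an 8.23-fold rise (SE 0.07, adjusted p = 3.31e-06). PTGES, which makes prostaglandin E2 from its product, rose from unmeasured as given above, and HPGD, which degrades it, rose by 1.52. PLA2G2A, a secreted phospholipase, fell at least 3.37-fold.

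Interferon and antigen presentation genes rose more often than they fell. Of 47 interferon response genes, 17 were called higher (36.2%, against 19.5% of all genes) and 4 lower, with a median difference of 0.05. ISG15, a ubiquitin-like antiviral protein, lay at 8.22 and 8.61 in the control arrays and at 10.26 and 10.35 in the shRNA arrays and rose by 1.89 (SE 0.14, adjusted p = 1.98e-04). IFIT2, IFIT3 and HERC5 rose by 1.89, 0.97 and 2.38, and the factor IRF8 and the antiviral PARP12 fell by 1.25 and 0.91. Of 22 antigen presentation genes, 9 were higher, such as the immunoproteasome subunit PSMB10 (0.92) and B2M (0.55), and 2 lower. Of 33 interleukins, chemokines and receptors, 10 were lower and 5 higher. CXCL10 and CCL20, which draw T cells and dendritic cells, fell by 2.57 and 1.62, and PPBP, a chemokine of platelets, rose at least 15.3-fold.

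Replication and mitosis genes were called lower, by small amounts, far more often than higher, and histone genes were mostly higher. Of 53 replication genes, 23 (43.4%) were called lower and 2 higher (median -0.32). Of 61 mitosis genes, 23 (37.7%) were lower and 0 higher (median -0.25). MCM6, a subunit of the replicative helicase, lay at 12.45 and 12.41 in the control arrays and at 11.57 and 11.60 in the shRNA arrays and fell by 0.85 (SE 0.09, adjusted p = 8.60e-04). ESPL1, the protease that separates sister chromatids, lay at 8.92 and 8.98 in the control arrays and at 7.80 and 7.95 in the shRNA arrays and fell by 1.08 (SE 0.10, adjusted p = 5.17e-04). The groups of both genes lay apart. MKI67, a marker of cycling cells, differed by -0.15 (adjusted p = 0.193) and was not called. In bulk RNA of a culture, fewer cells of a kind and less RNA per cell cannot be told apart. CDKN1C, a cyclin-dependent kinase inhibitor, rose by 1.58, and CCND2, cyclin D2, fell by 2.63. Of 12 histone genes, 8 were called higher and 1 lower, with a median of 0.79, or 0.73 with unmeasured levels set at 4. H2AC6, H1-2 and H2BC5 rose by 2.44, 1.44 and 1.19. Histone copies are near-identical, and their probe sets may pick up more than 1 of them.

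Stress programs were called in part, and few ribosomal protein, proteasome and cholesterol synthesis genes were called. Of 33 genes of the ATF4 program, which answers amino acid shortage, 14 were higher and 2 lower (median 0.25). Asparagine synthetase ASNS rose by 0.94, TRIB3 by 0.85 and ATF4 by 0.49, and NUPR1 lay at 3.03 and 4.15 in the control arrays and at 7.81 and 7.42 in the shRNA arrays, with 1 control array under 4. ER chaperones gave 4 higher and 7 lower of 32, and heat shock proteins 3 and 3 of 19. Of 50 cytosolic ribosomal proteins, 1 was called, RPS25, at -0.62. The median over ribosomal proteins was 0.02, that over 28 proteasome subunits 0.05 with 2 higher and 1 lower, and that over 21 cholesterol synthesis genes 0.10 with 3 and 3. In these 3 lists the shares called in each direction were below those of all genes.

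**Figure D4:**
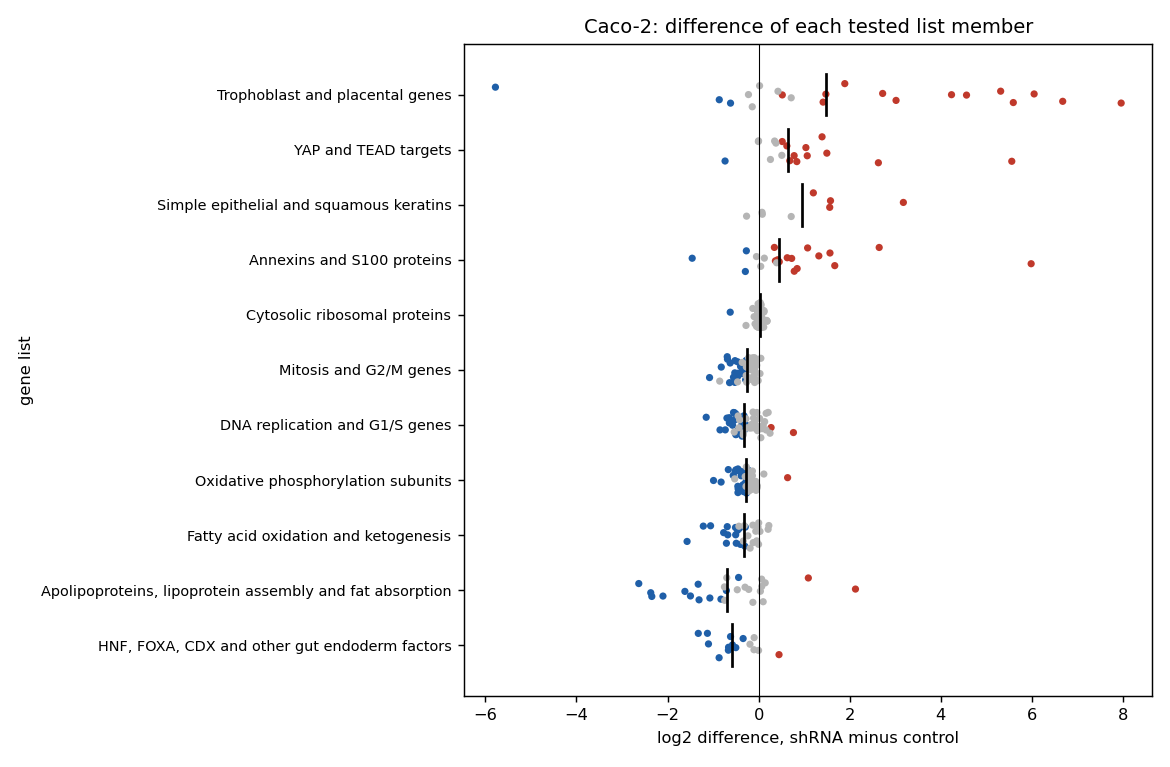
Each point is the log2 difference between shRNA and control means of 1 tested list member, in red where called higher, blue where called lower and grey where not called; black bars are list medians. Trophoblast genes spread furthest to the right, with a median of 1.48, oxidative phosphorylation subunits cluster below 0 with a median of -0.27, and ribosomal proteins centre on 0 with a median of 0.02.

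The response in Caco-2 was set beside that of HUG1N, where the groups are other arrays but the estimate of the spread is shared. The gap between the 3′ and 5′ probe sets of ACTB, which fell with the shRNA in Caco-2, rose in HUG1N. It lay there at 2.68 and 2.35 in the control arrays and at 3.69 and 3.77 in the shRNA arrays. The part of this opposite shift in the differences between the lines was not tested. The effects of the lines differed for 3457 genes (44.9%) by the test of the difference, and for 606 of the 742 genes changed at least 2-fold in Caco-2. Those 742 were picked by their Caco-2 effect, which is itself a part of the tested difference. That selection raises their share, and some of them are unmeasured in HUG1N. Of the 1504 genes higher in Caco-2, 484 (32.2%) were also called higher in HUG1N, which is 25.4% of the 1903 rises there (24.7% of all genes tested), and 297 were called lower in HUG1N. Of the 1478 genes lower in Caco-2, 530 (35.9%) were also called lower in HUG1N, 28.8% of the 1843 falls there (23.9% of all genes), and 265 were called higher. For GATA6 the difference between lines was -0.16 (SE 0.15, adjusted p = 0.396). TFAP2C rose by 4.24 in Caco-2 and by 0.64 in HUG1N, a difference of 3.60 (adjusted p = 4.06e-05). KRT19 rose by 1.56 and 1.46, and HPGD by 1.52 and 1.78. CCN2 rose less in Caco-2 (1.04) than in HUG1N (3.37), with a difference of -2.33 (adjusted p = 0.00350). TFF1 fell by 3.20 in Caco-2 and changed by -0.59 in HUG1N, a difference of -2.61 (adjusted p = 1.49e-04).

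**Figure D5:**
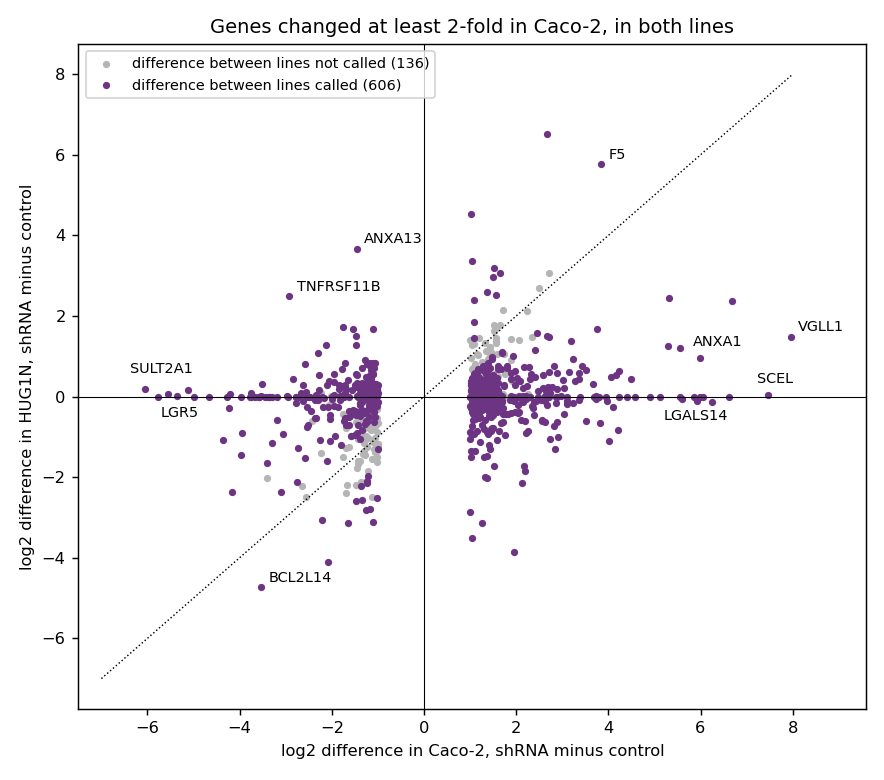
Each point is 1 of the 742 genes changed at least 2-fold in Caco-2, with its log2 difference between shRNA and control means in Caco-2 on the horizontal axis and in HUG1N on the vertical axis; the dotted line marks equal effects. The 606 genes in purple had a called difference between the lines, and a few such as TNFRSF11B and ANXA13 lie on opposite sides of 0. Many lie near 0 in HUG1N, where some are unmeasured. The genes were picked by their Caco-2 effect, which is a part of that difference.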

How the data were processed

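RNA of 8 samples of 2 cell lines was measured on 1-colour Affymetrix arrays. The authors deposited log2 values made by GCRMA, per the submitters' processing notes; the sources used here give neither version nor settings. GCRMA corrects background from probe sequence and puts dim probe sets at a floor, here 2.08 for the lowest, so small values have little meaning and were called unmeasured under log2 4. Of 22277 probe sets, 19070 carried 1 gene symbol, 1043 several and 2164 none; symbols were updated through Entrez IDs for 19058. Each of 11963 genes was represented by the probe set with the highest mean over the 8 arrays, and the 7696 over 4 in at least 2 arrays were tested. Of the genes named, 95 had several tested probe sets, and for none of these was another one called in the opposite direction. The size of the change could differ between probe sets of a gene.

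Limma 3.58.1 in R 4.3.3 fitted the means of the 4 groups (lmFit, eBayes, 4 residual degrees of freedom), with Benjamini-Hochberg adjustment over all genes tested and a threshold of 0.05. The spread is shared by both lines, so the error of a gene at or near the floor in HUG1N or in a Caco-2 group may be too small. Differences are shRNA minus control in log2 units, and SE, SD and intervals are on that scale. Where a group was unmeasured, the fold is a bound against log2 4, while SE and p are those of the deposited values. The fit was tested on simulated data. The number of arrays limits the precision.

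Named genes were the GATA factors, the 20 largest rises and falls measured in all 4 arrays, the 15 largest bounds each way, the 8 list members with the smallest p of each gene list and other called members, and the 8 largest differences between the lines each way. The lists and named genes were chosen with earlier results of these data known, so no list was tested. Alternatives varied the filter, normalization, variance model, probe set choice, floor, arrays fitted, replicate block and arrays left out. Promoter windows came from RefSeq on GRCh38.p14.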

Additional observations from a re-analysis of the deposited data

Results flagged for a closer look

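These results stand out because the effect of the GATA6 shRNA in Caco-2 differed from that in HUG1N by limma's test of the difference itself. In all 3457 genes passed. The values below are the Caco-2 log2 effect minus the HUG1N log2 effect, for the 8 called genes with the largest difference each way, and adjusted p-values are limma's over all genes tested. Values under 4 entered the differences as deposited. Where a line leaves a gene unmeasured, a small effect there is no sign that the gene could not respond.

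On the side of larger rises in Caco-2, SCEL differed by 7.44 (adjusted p = 1.31e-06), KCNJ16 by 6.64, LGALS14 by 6.05, ATP6V1B1 by 5.99 and PPBP by 5.86, and all 5 were under 4 in every HUG1N array. NNMT differed by 6.03 and had 1 HUG1N array of each group over 4. PLAAT4 differed by 6.38, and its HUG1N arrays were high in both groups, between 9.33 and 9.52. VGLL1 differed by 6.48. In HUG1N it was high already in the control arrays and went from 9.77 and 9.70 to 11.24 and 11.20, a rise of 1.49 (adjusted p = 1.81e-04) that was smaller than in Caco-2.

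On the side of larger falls in Caco-2, SULT2A1 differed by -6.24 (adjusted p = 7.79e-04), HSD3B1 by -5.78, LGR5 by -5.63, ADAM23 by -5.38 and VPS35L by -4.99, and all 5 were under 4 in every HUG1N array. BTNL8 differed by -5.30, with HUG1N arrays between 4.38 and 4.73. TNFRSF11B differed by -5.41, as it fell in Caco-2 and went from 4.93 and 6.15 to 8.39 and 7.66 in HUG1N (adjusted p = 0.00401). ANXA13 differed by -5.13, since it fell by 1.46 in Caco-2 and went from 3.16 and 3.17 to 7.06 and 6.62 in HUG1N. The causes of these differences between the lines were not tested.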

How the results depend on the processing

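Neither GATA6 nor any named gene with a call changed sign in the alternatives run; the balance of some gene lists did, as given above for brush border genes and nuclear receptors. Leaving out 1 array gave between 1895 and 2974 called genes, 1020 to 1479 higher, 875 to 1495 lower, 716 to 735 changed at least 2-fold and 2640 to 3151 differing between the lines; the lowest totals came without a control array of Caco-2 (1985 called and 957 lower without replicate 1, 1895 and 875 without replicate 2), where the lone control array is assumed to vary like the other groups. The other alternatives gave 2412 (no filter) to 3238 (variance trend) calls, 633 to 872 at least 2-fold and 2872 to 3854 differences. GATA6 had the same difference of -0.42 but no call with no filter (adjusted p = 0.0562) or with the Caco-2 arrays alone (0.0724), and lost it without control replicate 1 (-0.32) and without shRNA replicate 2 (-0.31), within -0.52 to -0.31 on leaving out arrays. The labels number the replicates, but same-numbered arrays did not deviate together (r = 0.07 over genes in Caco-2 and -0.02 in HUG1N), so the numbers were not taken as pairs; with the replicate block there were 2485 calls, 1280 higher and 1205 lower, 727 at least 2-fold and 2999 differences, and GATA6 kept its call at -0.42 (adjusted p = 0.0204). Of 259 other named genes with a call, 253 had it under every alternative, and CCN2, CDX2, TEAD4 and the unmeasured GATA4, NT5E and TFAP2A lost it under at least 1. With 2 arrays a group the spread is poorly known, and values near log2 4 have little signal over background.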

Other observations

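Cell death, cell cycle control and TNF family genes were called in both directions. All counts here are to be read against the 19.5% of tested genes called higher and the 19.2% called lower. Of 33 BCL2 family and cell death genes, 10 (30.3%) were called higher and 5 (15.2%) lower. The survival proteins BCL2L1, MCL1 and BCL2L2 rose by 0.67, 0.61 and 0.78, and so did the inflammatory caspase CASP4 by 0.98. Of 35 cyclins, CDK inhibitors and p53 targets, 11 (31.4%) were higher and 5 (14.3%) lower, with CCND3 and CCNG2 up by 1.22 and 1.16 and the pocket protein RBL1 down by 0.79. In the NF-kB and TNF family 9 of 33 (27.3%) were higher and 4 (12.1%) lower. LTB, lymphotoxin beta, lay at 3.98 and 4.01 in the control arrays and at 5.87 and 6.45 in the shRNA arrays and was called higher (SE 0.22, adjusted p = 7.26e-04), with 1 control array just under 4. TNFRSF12A, the receptor of TWEAK, rose by 2.06, while the TNF receptor TNFRSF1B fell by 2.05 and the NF-kB inhibitor TNFAIP3 by 0.89.

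Proteases and their inhibitors at the cell surface were called in 12 rises and 9 falls of 31 tested. The membrane-bound metalloproteinase MMP15 rose by 1.89 and the inhibitor TIMP3 by 1.58, while the secreted collagenase MMP1 fell by 2.09. ADAM22 fell at least 5.24-fold beside its relative ADAM23. Of 14 cornified envelope and squamous genes, 4 were higher and 2 lower. Only 7 of the 14 were over 4 in at least 2 Caco-2 arrays. The others were unmeasured in most or all Caco-2 arrays, so the list does not tell how far the rise of SCEL was shared. Periplakin PPL and the transglutaminase TGM2 rose by 2.09 and 1.58.

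Sugar, lipid, lysosome and cilium genes were called in shares that can be set beside 19.5% higher and 19.2% lower over all tested genes. Of 17 gluconeogenesis, fructose, galactose and glycogen genes, 7 (41.2%) were called lower and 2 (11.8%) higher (median -0.31). FBP1, the fructose bisphosphatase of gluconeogenesis, lay at 5.20 and 5.24 in the control arrays and at 4.08 and 3.60 in the shRNA arrays and fell by 1.38 (SE 0.16, adjusted p = 0.00113), with 1 shRNA array under 4, and GYS1, glycogen synthase, rose by 1.26. Of 29 fatty acid and phospholipid synthesis genes, 6 (20.7%) were higher and 9 (31.0%) lower. PLAAT3 rose by 1.03 beside PLAAT4, and the acetyl-CoA carboxylase ACACB fell by 1.68. Of 35 lysosome and proton pump genes, 10 (28.6%) were higher and 3 (8.57%) lower, with the pump subunits ATP6V1E1 and ATP6AP1 up by 0.89 and 0.68. Of 27 cilium and axoneme genes, 8 (29.6%) were lower and 1 (3.70%) higher.

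Among receptors coupled to G proteins and their regulators, 6 of 27 were higher and 6 lower. The adenosine receptor ADORA2B went from 5.28 and 5.89 in the control arrays to unmeasured and GPRC5B fell by 2.21, while its relative GPRC5A rose by 1.66. Of 17 AP-1, EGR and MYC factors, 4 were higher and 1 lower. ATF3 and JUNB, both immediate early factors, rose by 1.51 and 1.40.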
